A study of Rattus norvegicus with 9 samples.

Results

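Messenger RNA was measured by RNA sequencing in synovium, the tissue that lines the joint, of Lewis rats. The members described here are genes that glucocorticoids are known to induce, 1 enzyme that makes the active hormone and 2 metallothioneins: Zbtb16, Fkbp5, Tsc22d3, Klf9, Sgk1, Dusp1, Hsd11b1, Mt1 and Mt2A. They were taken by symbol from a deposited table of 32883 genes, which gave 9 of the 10 genes asked for; the receptor gene Nr3c1 was not analysed here. The 9 libraries fall into 3 groups of 3, which the labels call TZG, AIA and NC. From the series title, TZG was read as the group given Tianhe Zhuifeng liquid extract, AIA as the arthritis model and NC as the control. The labels give no age, sex, dose or time and do not say whether TZG rats had arthritis. Nor do they state that each library is another animal; the p-values below therefore cover variation among the libraries at hand, some or all of which could be technical.

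Glucocorticoids such as corticosterone, the main one in rats, enter the cell and bind the glucocorticoid receptor, which HSP90 and its cochaperones hold ready. The bound receptor moves to the nucleus, where it raises transcription of some genes at glucocorticoid response elements and lowers that of many inflammatory genes. In joints these hormones are known for restraining inflammation, and the enzyme HSD11B1 regenerates the active hormone inside the tissue. Metallothioneins are small zinc and copper binding proteins. Their genes respond to metals through the factor MTF1, and in rodents also to glucocorticoids and, in acute inflammation, to interleukin 6 and its signal transducer STAT3.

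Zbtb16 was chosen by its measured levels, high in AIA only, and Mt1 by its level in AIA against NC, so both are described with fold changes and standard errors and without a test. The other 7 members were selected on their known biology, with earlier results of these data known, and their tests are given over all 15068 genes tested. Among these 7, the test of Mt2A is not free of the choice of Mt1. The log2 CPM of this pair had a Pearson correlation of 0.95 over the 9 libraries. Of these 7, edgeR called 0 at an adjusted p under 0.05 in AIA against NC, 0 in TZG against AIA and 1, Mt2A, in TZG against NC. Among all genes tested, 0.0133%, 0% and 10.3% passed in the same 3 comparisons. At an unadjusted p under 0.05 stood 2, 1 and 3 of the 7, against 2264, 1894 and 4387 of the 15068 genes tested. Those all-gene counts are also the background for this cutoff in the gene lists below. DESeq2 called 2, 0 and 3 of the 7 members, against 6.24%, 1.99% and 19.6% of all genes. With limma-voom 0, 0 and 1 of the 7 were called, against 1, 0 and 1180 of the 15068 genes. The all-gene figures of edgeR, DESeq2 and limma-voom are likewise the background for the calls in the gene lists below. The median log2 fold change of the 9 members was -0.08, -0.08 and -0.23, Zbtb16 and Mt1 included, against -0.01, 0.00 and -0.02 over all genes tested.

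The promoters of the metallothionein pair are shown because these were the members that differed most from NC. The windows run from 250 bases before to 50 bases after the start of transcription in RefSeq's rat assembly GRCr8. Mt1 lies at chr19:10832926-10833225 and Mt2A at chr19:10838659-10838958, both on the minus strand. Letters are in lower case, and capitals mark the core of the metal response element, searched as TGCACNC or TGCGCNC on both strands.
Mt1: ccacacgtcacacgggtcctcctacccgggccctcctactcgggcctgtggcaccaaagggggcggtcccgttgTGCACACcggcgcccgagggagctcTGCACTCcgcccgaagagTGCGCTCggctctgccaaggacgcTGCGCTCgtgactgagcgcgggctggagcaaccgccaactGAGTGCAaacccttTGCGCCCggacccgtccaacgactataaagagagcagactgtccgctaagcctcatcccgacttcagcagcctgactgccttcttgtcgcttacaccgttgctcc
Mt2A: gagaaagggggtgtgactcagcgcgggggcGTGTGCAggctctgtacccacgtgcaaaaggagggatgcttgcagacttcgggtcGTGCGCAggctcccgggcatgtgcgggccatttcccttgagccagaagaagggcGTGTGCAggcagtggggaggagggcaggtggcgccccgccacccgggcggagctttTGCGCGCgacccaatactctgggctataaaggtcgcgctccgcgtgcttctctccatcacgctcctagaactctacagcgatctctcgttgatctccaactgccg
The Mt1 window holds 6 cores, beginning 176, 151, 133, 109, 69 and 55 bases before the start, and no core overlaps another. The Mt2A window holds 4, beginning 220, 165, 111 and 55 bases before the start. Of 33469 such windows in the RefSeq table, 24.2% hold at least 1 core, 0.439% at least 4 and 0.0388% at least 6.

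RefSeq windows were at hand for 7 members, with 11 windows in all because some genes have several starts. Of the 9 windows outside the metallothioneins, 7 held no core and 2 held 1. The palindrome of the glucocorticoid response element, searched as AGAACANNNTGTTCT, is in 0.0149% of all windows, and a relaxed form, GNACANNNTGTNC, in 0.439%. Neither was found in the 11 windows of the members, which says only that these letters are not in these 300 bases.

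Levels are given as CPM, reads scaled to the size of the library, which allows a gene to be compared between libraries, or as FPKM, which also divides by gene length and allows genes to be compared with each other. Libraries held 12536231 to 16402126 reads, at which a count of 3 reads equals 0.190 to 0.265 CPM, covering counting error only. Prg4, the joint lubricant and a marker of synovium, was present in every library at 1197 to 7303 CPM. The collagen gene Col1a1, which is not particular to synovium, stood at 2976 to 42860 CPM, with the highest value in G48. Other tissue was present in amounts that differed between libraries. Markers of skeletal muscle summed to 15.2 to 53.7 CPM in TZG, 14.0 to 38.8 in AIA and 82.6 to 25630 in NC, with the highest value in C61. Markers of cartilage summed to 85.7 to 6380 CPM in TZG, 5.86 to 133 in AIA and 2.82 to 11.3 in NC, with the highest in G48. Markers of bone summed to 5.33 to 1265 CPM in TZG, 11.7 to 55.7 in AIA and 10.1 to 21.9 in NC, also with the highest in G48. Markers of red cells summed to 401 to 1035 CPM in TZG, 657 to 4892 in AIA and 189 to 622 in NC, with the highest in M8.

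**Figure D1:**
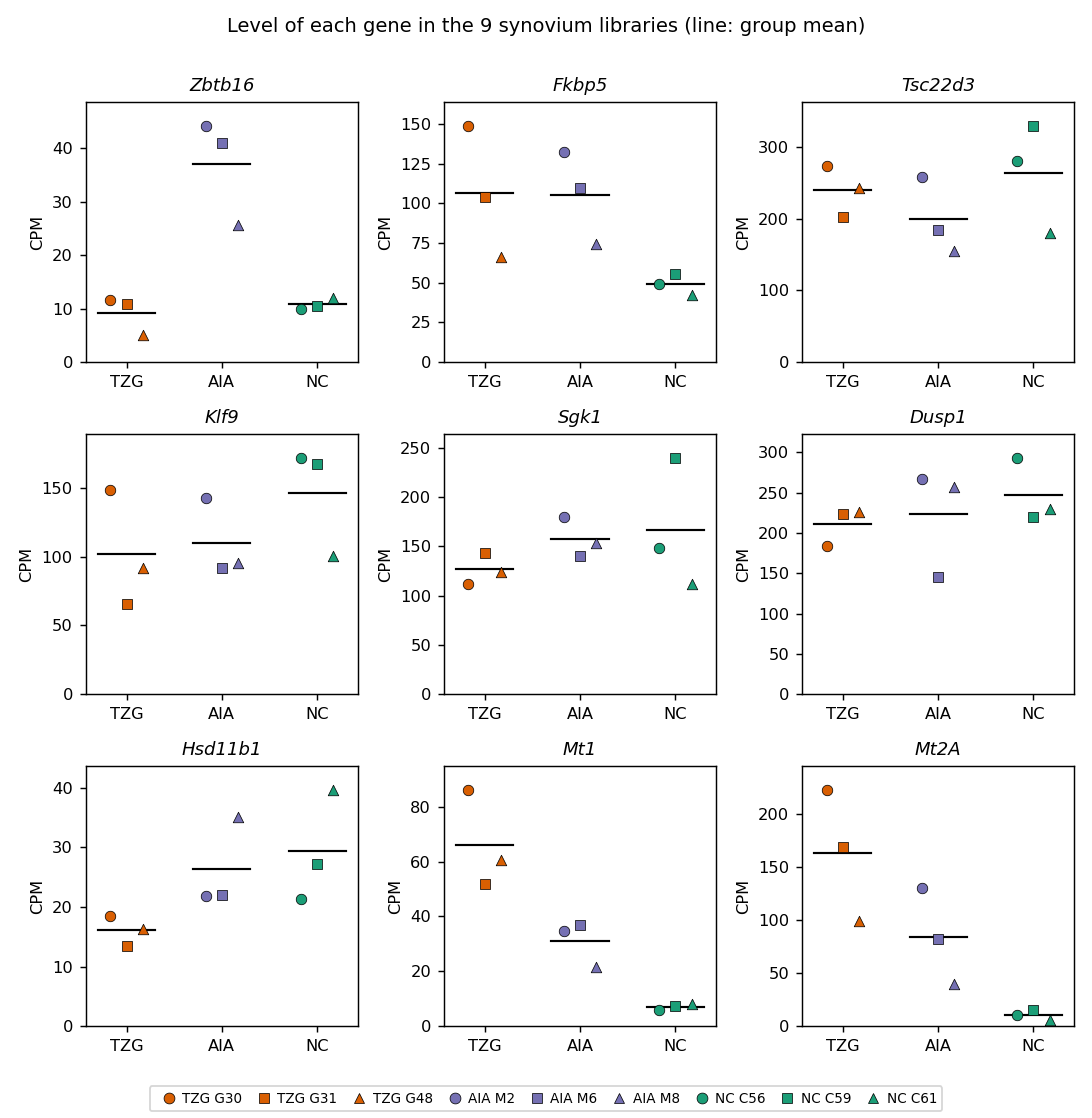
Level of each of the 9 members in CPM (linear axes from 0) in the 3 TZG, 3 AIA and 3 NC libraries; each point is 1 library and each line the group mean. Zbtb16 is high in the 3 AIA libraries, Fkbp5 lies above NC in AIA and TZG, Mt1 and Mt2A have their highest mean in TZG and their lowest in NC, and Tsc22d3, Klf9, Sgk1 and Dusp1 overlap between all groups.

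Zbtb16 encodes PLZF, a zinc finger repressor of transcription that glucocorticoids strongly induce in many human and rodent cells and that innate-like T cells also carry. Its level was 11.5, 10.9 and 4.98 CPM in the TZG libraries G30, G31 and G48, 44.2, 40.9 and 25.7 CPM in the AIA libraries M2, M6 and M8, and 9.90, 10.5 and 12.0 CPM in the NC libraries C56, C59 and C61. Every AIA library thus stood above every TZG and every NC library, while TZG and NC overlapped. This order, which is how the gene was chosen, was seen for 237 of the 15068 genes tested, or 1.57%. The values rest on 409 reads in TZG, 1579 in AIA and 452 in NC.

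The log2 fold change of Zbtb16 was 1.77 ± 0.32 (SE, n = 3 libraries each) in AIA against NC, a 3.42-fold higher level in AIA. It was -2.01 ± 0.33 in TZG against AIA and -0.24 ± 0.32 in TZG against NC, where it had the other sign, at 0.07, without G48. Per length, Zbtb16 averaged 3.60 ± 1.55 FPKM in TZG, 14.3 ± 3.87 in AIA and 3.95 ± 0.186 in NC (SD, n = 3); it and Hsd11b1 had the lowest FPKM of the 9 members in every group. In bulk tissue a change in the number of cells that carry a transcript and a change in its amount per cell cannot be told apart. In the deposited table the gene (ENSRNOG00000029980) spans chromosome 8 from 52985313 to 53146953, in a build that the sources used here do not name.

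Markers of T and natural killer cells, which can carry Zbtb16, differed between the groups as well. The 7 markers summed to 39.3, 39.0 and 63.4 CPM in TZG, 15.7, 30.6 and 36.8 CPM in AIA and 2.54, 2.50 and 2.91 CPM in NC, and 1 to 3 of the 7 were at 0 in each library. Their sum was above all AIA libraries in TZG and above all NC libraries in AIA. The 5 fat cell markers summed to 505 to 2519 CPM in TZG, 2844 to 4021 in AIA and 1401 to 5028 in NC. The 4 endothelial markers with a row summed to 1158 to 1302 CPM in TZG, 1397 to 1630 in AIA and 1265 to 1722 in NC. Schwann cell markers summed to 152 to 280 CPM in TZG, 287 to 475 in AIA and 335 to 988 in NC. Mast cell markers summed to 30.4 to 38.6 CPM in TZG, 40.9 to 46.8 in AIA and 40.4 to 79.9 in NC. For fat, endothelium, Schwann cells and mast cells alike, AIA stood above all TZG libraries but overlapped NC. The part of any of these cell types in the Zbtb16 result was not tested.

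The question put to these genes was whether Zbtb16 had company among the known glucocorticoid targets. None of the other 8 members had AIA above all TZG and all NC libraries, an order that 1.57% of all genes tested had. At that share, finding none among 8 genes is likely and does not show that Zbtb16 stands alone. Across the 9 libraries, the Pearson correlation of log2 CPM with Zbtb16 was 0.48 for Fkbp5, 0.29 for Hsd11b1, 0.24 for Sgk1, 0.19 for Mt2A, 0.08 for Mt1, -0.01 for Klf9, -0.19 for Dusp1 and -0.37 for Tsc22d3. With any 1 library left out it ran from 0.32 to 0.65 for Fkbp5, 0.11 to 0.45 for Hsd11b1 and 0.08 to 0.61 for Sgk1. For Mt2A it ran from 0.04 to 0.37, for Mt1 from -0.04 to 0.35 and for Klf9 from -0.19 to 0.15. For Dusp1 it ran from -0.48 to 0.38 and for Tsc22d3 from -0.58 to -0.25. These correlations are descriptions over libraries that share 3 groups.

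Genes tested with a mean of at least 5 CPM were ranked by correlation with Zbtb16, leaving out those whose name is only a database identifier. The 5 highest were Dock9, Paqr3, Trim25, Pkp4 and Clu, with correlations of 0.94, 0.94, 0.94, 0.94 and 0.93 over the 9 libraries. The choice itself fixes that these values are high. Dock9, an activator of the small GTPase CDC42, averaged 197 CPM in TZG, 270 in AIA and 218 in NC. Clu, which encodes the secreted chaperone clusterin, averaged 1388 CPM in TZG, 2094 in AIA and 1364 in NC. The 5 genes were 1.17 to 1.54-fold higher in AIA than in NC and 1.23 to 1.52-fold higher in AIA than in TZG, against 3.42-fold for Zbtb16 in AIA over NC. None of them stands in the lists of glucocorticoid targets used here.

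**Figure D2:**
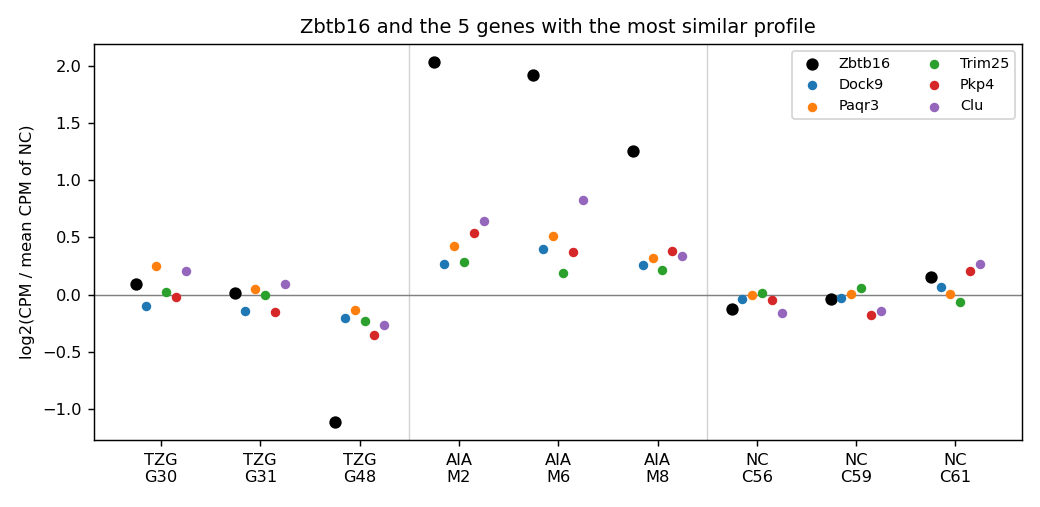
Level of Zbtb16 (black) and of the 5 genes highest in the ranking by correlation to it, in each of the 9 libraries. Values are log2 of CPM over the gene's NC mean. Zbtb16 lies 1.25 to 2.03 above its NC mean in the AIA libraries, and each of the other genes less than 1 above its own.

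Fkbp5 stood above NC in AIA and TZG alike. It encodes FKBP51, a cochaperone of HSP90 that dampens the receptor, and its induction by glucocorticoids is used as a readout of receptor activity. Its level was 149, 104 and 66.4 CPM in TZG (G30, G31, G48), 133, 110 and 74.6 CPM in AIA (M2, M6, M8) and 49.1, 55.6 and 42.3 CPM in NC (C56, C59, C61). All 6 TZG and AIA libraries stood above all NC libraries, and TZG and AIA overlapped.

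The log2 fold change of Fkbp5 was 1.11 ± 0.30 (SE) in AIA against NC (edgeR adjusted p = 0.15) and 1.12 ± 0.30 in TZG against NC (adjusted p = 0.051), so neither passed; both comparisons use the same NC libraries. TZG against AIA gave 0.01 ± 0.30 (adjusted p = 0.99), which leaves room for a difference of either sign. In the authors' deposited table Fkbp5 has a q-value of 0.00549 in AIA against NC, 1 in TZG against AIA and 0.0158 in TZG against NC. Both contrasts with NC also passed in DESeq2 (adjusted p = 0.018 and 0.0053) and without C61, M8 and G48, the libraries richest in muscle, red cell and cartilage transcripts (adjusted p = 0.043 and 0.014). TZG against NC passed as well without M8 (adjusted p = 0.0498), without G48 (adjusted p = 0.031) and with a stricter filter on low counts (adjusted p = 0.049).

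The other 4 glucocorticoid-induced members did not follow Fkbp5. Tsc22d3 encodes GILZ, a leucine zipper protein that mediates anti-inflammatory effects of glucocorticoids. It stood at 274, 202 and 243 CPM in TZG, 257, 184 and 155 CPM in AIA and 280, 329 and 180 CPM in NC. Its groups overlapped in every comparison, with log2 fold changes of -0.40 ± 0.26 in AIA against NC, 0.27 ± 0.26 in TZG against AIA and -0.14 ± 0.26 in TZG against NC (edgeR adjusted p = 0.52, 0.69 and 0.77). Klf9, a Krüppel-like factor induced by glucocorticoids and thyroid hormone, stood at 149, 65.4 and 92.1 CPM in TZG, 143, 91.6 and 95.5 CPM in AIA and 172, 168 and 101 CPM in NC. Its log2 fold changes were -0.42 ± 0.33, -0.11 ± 0.33 and -0.52 ± 0.33 in the same order (adjusted p = 0.62, 0.92 and 0.33), and its groups overlapped.

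Sgk1, a kinase induced by glucocorticoids and mineralocorticoids that regulates ion channels, stood at 112, 144 and 124 CPM in TZG, 180, 140 and 153 CPM in AIA and 148, 240 and 112 CPM in NC. Dusp1, a phosphatase that switches off p38 and JNK kinases, stood at 183, 224 and 227 CPM in TZG, 268, 146 and 258 CPM in AIA and 293, 220 and 230 CPM in NC. For both genes the groups overlapped in every comparison. The log2 fold changes of Sgk1 were -0.08 ± 0.26, -0.32 ± 0.26 and -0.40 ± 0.26 and those of Dusp1 -0.15 ± 0.23, -0.08 ± 0.23 and -0.23 ± 0.23 in AIA against NC, TZG against AIA and TZG against NC. Their edgeR adjusted p ran from 0.34 to 0.92. Both genes are also early response genes, and with other libraries or units the sign turned in AIA against NC.

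Hsd11b1, whose enzyme turns inactive 11-dehydrocorticosterone into corticosterone, was the member whose TZG libraries all lay below those of both other groups. It stood at 18.5, 13.5 and 16.3 CPM in TZG, 21.8, 21.9 and 35.1 CPM in AIA and 21.2, 27.3 and 39.6 CPM in NC. AIA and NC overlapped. The log2 fold change was -0.71 ± 0.27 in TZG against AIA (edgeR adjusted p = 0.35), -0.86 ± 0.27 in TZG against NC (adjusted p = 0.078; 0.025 in DESeq2) and -0.16 ± 0.27 in AIA against NC (adjusted p = 0.84). None of these passed in edgeR. Fat cells are a known site of this enzyme. Their marker sum was 2519, 2162 and 505 CPM in TZG (G30, G31, G48), 3209, 2844 and 4021 CPM in AIA (M2, M6, M8) and 1401, 3001 and 5028 CPM in NC (C56, C59, C61). C61 and M8 were highest in their groups for both, while in TZG the lowest Hsd11b1 was in G31 and the lowest marker sum in G48. The part of fat cells in these values was not tested.

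**Figure D3:**
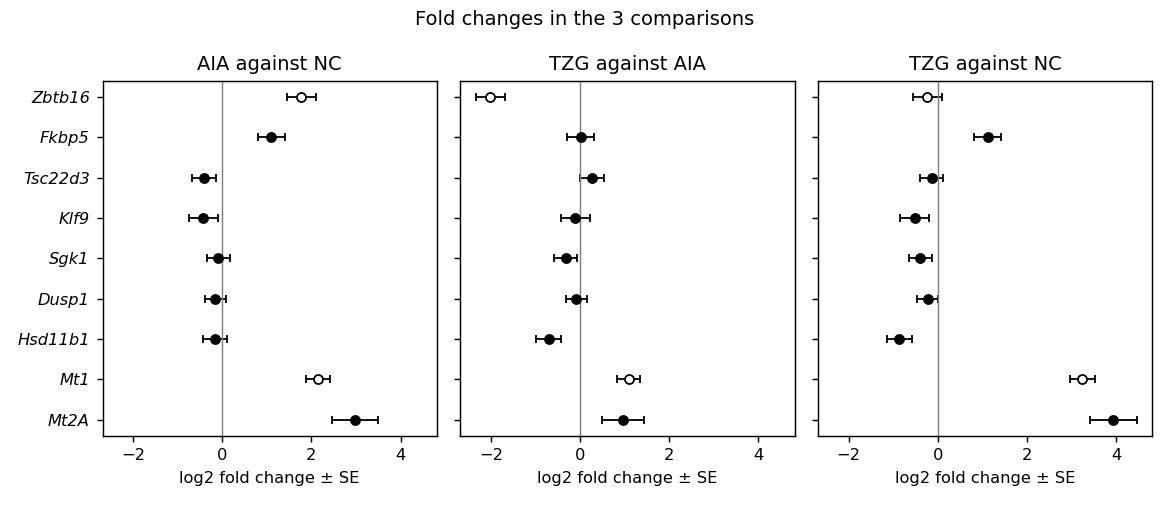
Log2 fold change with its standard error (horizontal axis) of the 9 members in AIA against NC, TZG against AIA and TZG against NC, from edgeR on 3 libraries per group; open circles mark Zbtb16 and Mt1, which were chosen for their values. Zbtb16 is at 1.77 in AIA against NC and at -2.01 in TZG against AIA, whereas Mt1 and Mt2A lie above 0 in all 3.

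The metallothionein genes had the largest differences from NC among the members. Mt2A stood at 223, 169 and 98.9 CPM in TZG (G30, G31, G48), 130, 82.3 and 39.4 CPM in AIA (M2, M6, M8) and 10.7, 15.0 and 6.18 CPM in NC (C56, C59, C61). TZG and NC did not overlap, nor did AIA and NC, whereas TZG and AIA did. The log2 fold change was 3.93 ± 0.53 in TZG against NC (edgeR adjusted p = 0.013), 2.97 ± 0.51 in AIA against NC (adjusted p = 0.091) and 0.96 ± 0.47 in TZG against AIA (adjusted p = 0.43). Mt2A thus rose in TZG against NC, and the other comparisons did not pass. With any 1 library left out the adjusted p of TZG against NC ran from 0.010 to 0.043, and with only the 5 libraries whose column number is a sample title it was 0.098, at a log2 fold change of 4.38.

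For Mt2A the authors' deposited table gives a q-value of 5.67e-17 in TZG against NC, 3.05e-09 in AIA against NC and 0.337 in TZG against AIA. AIA against NC also passed in DESeq2 (adjusted p = 3.1e-07) and without C61, M8 and G48 (adjusted p = 0.017). Over all genes, libraries that do not overlap between groups were common: AIA was above NC in 11.2%, TZG above AIA in 10.7% and TZG above NC in 17.4% of genes. The members with this order numbered 4, 1 and 3 of 9 and included the genes chosen for it. In the opposite direction stood 0, 2 and 1 members, against 9.22%, 12.7% and 15.2% of all genes.

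The row named Mt1 stood at 86.1, 52.0 and 60.4 CPM in TZG, 34.7, 37.0 and 21.7 CPM in AIA and 5.77, 7.24 and 8.12 CPM in NC. Its libraries did not overlap in any comparison, an order with TZG above AIA and AIA above NC that 200 genes, or 1.33%, shared. The log2 fold changes were 2.15 ± 0.27 in AIA against NC, 1.09 ± 0.25 in TZG against AIA and 3.23 ± 0.28 in TZG against NC. Per length, Mt2A averaged 441 FPKM in TZG, 224 in AIA and 27.1 in NC, and Mt1 174, 81.6 and 17.4 FPKM in the same groups. In every group the mean FPKM of Mt2A was above that of Mt1.

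Which copy the Mt1 reads came from is uncertain. The deposited row (ENSRNOG00000038047) is a single stretch of 389 bases on chromosome 17, from 78793336 to 78793724, in a build that the sources used here do not name. RefSeq's table for GRCr8 places Mt1 on chromosome 19, beside Mt2A, and lists a pseudogene, Mt1-ps3, on chromosome 17 with the same span of 389 bases. RefSeq holds 5 protein-coding and 4 pseudogene metallothionein entries in the rat, and reads of near-identical copies can be split between rows or placed on the wrong one. The promoter printed above belongs to the RefSeq gene on chromosome 19, and the levels to the deposited row. Mt2A (ENSRNOG00000043098) lies on chromosome 19 in both.

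A further row, Mt1m, is a pseudogene in RefSeq and was looked at after its values were seen. It stood at 106, 69.3 and 48.2 CPM in TZG, 54.7, 44.8 and 19.9 CPM in AIA and 4.25, 7.64 and 5.73 CPM in NC, with a log2 fold change of 3.66 ± 0.46 in TZG against NC. The Pearson correlation of log2 CPM over the 9 libraries was 0.95 between Mt1 and Mt2A and 0.98 between Mt1m and either of them. Mt3, the brain-enriched metallothionein next to Mt2A on chromosome 19, did not share the order, at 4.36 ± 4.44 CPM in TZG, 1.23 ± 0.436 in AIA and 3.61 ± 1.39 in NC (SD, n = 3). The ratio of Mt2A to Mt1 reads was 1.64 to 3.25 in TZG, 1.82 to 3.75 in AIA and 0.761 to 2.07 in NC.

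**Figure D4:**
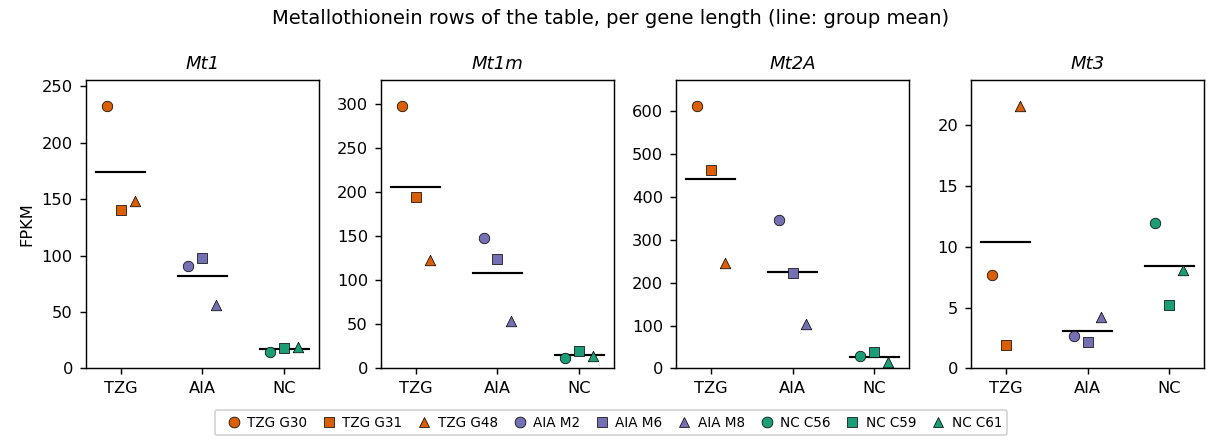
Level per gene length (FPKM, linear axes from 0) of the metallothionein rows Mt1, Mt1m, Mt2A and Mt3 in the 9 libraries; points are libraries and lines group means. Mt1, Mt1m and Mt2A are highest in G30 and lowest in NC, and Mt3 stays under 22 FPKM with its lowest mean in AIA.

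Mt1 and Mt2A together summed to 309, 221 and 159 CPM in TZG, 165, 119 and 61.1 CPM in AIA and 16.5, 22.3 and 14.3 CPM in NC. Markers of neutrophils and marrow were also higher in TZG and AIA than in NC. The 6 markers summed to 823, 355 and 2286 CPM in TZG, 305, 309 and 2279 CPM in AIA and 44.1, 59.8 and 116 CPM in NC, with 0 to 2 of them at 0 in a library. Within TZG and within AIA the metallothionein sum was lowest in G48 and M8, the libraries where these markers were highest. G48 also had the highest cartilage and bone marker sums, and M8 the highest red cell marker sum. The part of any of these cells or tissues in the metallothionein values was not tested. The log2 fold change of Mt2A was 3.93 in TZG against NC and 3.04 in AIA against NC without C61, M8 and G48.

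The correlation of log2 CPM over the 9 libraries was 0.91 between Fkbp5 and Mt2A, 0.82 between Fkbp5 and Mt1 and 0.76 between Klf9 and Tsc22d3. G48 had the lowest TZG value and M8 the lowest AIA value of Zbtb16, Fkbp5 and Mt2A alike. These figures describe 9 libraries in 3 groups and carry no test.

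The wider list of glucocorticoid-induced genes held 34 entries besides the members, of which 31 were tested. In AIA against NC edgeR called 0 of them, with 7 at an unadjusted p under 0.05, 2 called by DESeq2 (Glul and Lcn2, a share near its 6.24% of all genes) and 0 by limma-voom. In TZG against AIA it called 0, with 5 at an unadjusted p under 0.05, 2 called by DESeq2 (Cebpb and Gadd45b, where it called 1.99% of all genes) and 0 by limma-voom. The median log2 fold change was 0.11 in AIA against NC and -0.02 in TZG against AIA. Of the 31 genes 0 had AIA above all TZG and all NC libraries, the order of Zbtb16 that 1.57% of all genes had. Glul stood at 1191, 1505 and 1252 CPM in AIA (M2, M6, M8) and 523, 784 and 688 CPM in NC (C56, C59, C61). The authors' log2 fold change in AIA against NC was 0.99 for Glul (their q-value 0.017) and 3.05 for Lcn2 (their q-value 1.25e-07). Klf15, Per1 and Zfp36 were picked after their values were seen. Their log2 fold changes in AIA against NC were 0.03 ± 0.36 for the Krüppel-like factor Klf15 and -0.29 ± 0.36 for the clock gene Per1. For Zfp36, whose protein destabilises cytokine transcripts, it was 0.10 ± 0.31.

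In TZG against NC, 6 of the 31 genes passed, 4 higher and 2 lower, and the median was 0.04. Over all genes 5.79% were higher and 4.53% lower. Cebpb and Cebpd, a pair of C/EBP transcription factors that inflammatory cytokines also induce, rose by 1.05 ± 0.19 and 1.67 ± 0.34 on the log2 scale (edgeR adjusted p = 0.018 and 0.024). Cebpb stood at 296 ± 63.7 CPM in TZG, 176 ± 25.3 in AIA and 143 ± 18.2 in NC (SD, n = 3). Glul, glutamine synthetase, rose by 1.10 ± 0.30 (adjusted p = 0.049), and Lcn2, the iron-binding lipocalin that neutrophils also make, by 3.66 ± 0.75 (adjusted p = 0.024), beside the higher neutrophil and marrow markers given above.

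The genes that fell in TZG against NC were Fbxo32, a ubiquitin ligase of muscle wasting, and Mertk, a receptor with which macrophages clear dying cells. Fbxo32 stood at 15.9 ± 4.37 CPM in TZG, 24.5 ± 1.21 in AIA and 33.9 ± 4.70 in NC, a log2 fold change of -1.09 ± 0.20 in TZG against NC (edgeR adjusted p = 0.019). Muscle markers were lower in every TZG library than in every NC library, and their part in the Fbxo32 result was not tested. Mertk had a log2 fold change of -0.47 ± 0.12 (adjusted p = 0.043). The count of 6 was 2 without G30 or C59, 0 without C56 and 0 with only the 5 libraries matched by title.

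**Figure D5:**
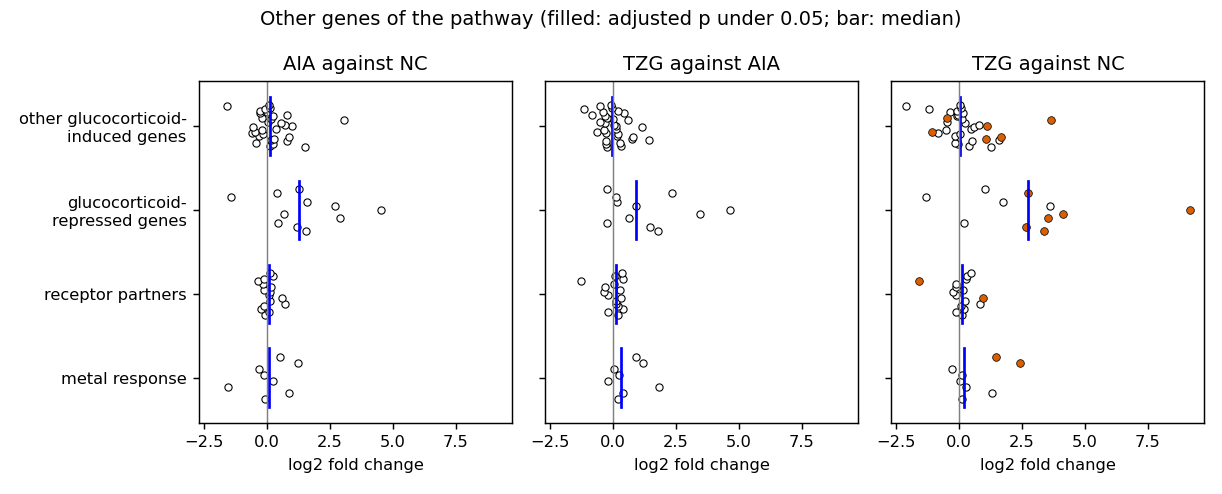
Log2 fold change (horizontal axis) of each tested gene in 4 lists, in AIA against NC, TZG against AIA and TZG against NC; filled points passed an edgeR adjusted p of 0.05 and vertical bars mark list medians. The 31 other glucocorticoid-induced genes spread to both sides of 0 in all 3 panels, with medians of 0.11, -0.02 and 0.04. Of the 11 genes that glucocorticoids repress, 10, 9 and 10 lie to the right of 0, with medians of 1.28, 0.91 and 2.73.

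Genes that glucocorticoids are known to repress, mostly cytokines, chemokines and proteases, had higher medians than all genes. Of 11 tested, 0 passed in AIA against NC (7 at an unadjusted p under 0.05, 2 in DESeq2, 0 in limma-voom) and 0 in TZG against AIA (5 at an unadjusted p under 0.05, 3 in DESeq2, 0 in limma-voom). In TZG against NC, where 5.79% of all genes rose and 4.53% fell, 6 rose and 0 fell: Ccl2, Cxcl1, Il1b, Il6, Mmp13 and Ptgs2. The median log2 fold change of the list was 1.28, 0.91 and 2.73 in these 3 comparisons. Ptgs2, the inducible cyclooxygenase, stood at 8.17 ± 5.81 CPM in TZG, 1.61 ± 0.525 in AIA and 1.22 ± 0.506 in NC, a log2 fold change of 2.73 ± 0.55 in TZG against NC (edgeR adjusted p = 0.023). The chemokine Cxcl1 stood at 4.60 ± 2.70, 1.65 ± 0.486 and 0.717 ± 0.0697 CPM in TZG, AIA and NC. The collagenase Mmp13 stood at 34.0, 3.46 and 676 CPM in TZG, 5.42, 3.19 and 19.7 CPM in AIA and 0.190, 0.790 and 0.176 CPM in NC. Beside it, cartilage markers summed to 444, 85.7 and 6380 CPM in TZG, 5.86, 22.3 and 133 CPM in AIA and 5.77, 11.3 and 2.82 CPM in NC. Bone markers summed to 90.6, 5.33 and 1265 CPM in TZG, 19.7, 11.7 and 55.7 CPM in AIA and 16.2, 21.9 and 10.1 CPM in NC. Il1b stood at 14.1 ± 4.59 CPM in TZG, 9.11 ± 2.94 in AIA and 1.23 ± 0.459 in NC, beside the neutrophil and marrow markers given above. The part of these tissues in the list was not tested. The count of 6 was 2 without C56, 3 without C61, 3 in limma-voom and 0 with only the 5 libraries matched by title.

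Of the genes that serve the receptor, 16 were tested, among them HSP90 and its cochaperones and the coactivators and corepressors. None passed in AIA against NC (1 at an unadjusted p under 0.05, 0 in DESeq2 and limma-voom) or in TZG against AIA (5 at an unadjusted p under 0.05, 1 in DESeq2, 0 in limma-voom). In TZG against NC Hspa8 rose and Nr3c2 fell, 2 of 16 and so near the 10.3% of all genes. Nr3c2, the mineralocorticoid receptor, which also binds corticosterone, stood at 6.73, 5.40 and 6.32 CPM in TZG, 14.7, 12.7 and 16.7 CPM in AIA and 21.2, 22.2 and 12.6 CPM in NC. TZG was below every AIA and NC library, and the log2 fold change was -1.60 ± 0.24 in TZG against NC (edgeR adjusted p = 0.014) and -1.26 ± 0.23 in TZG against AIA (adjusted p = 0.26). The row named Hspa8, after the constitutive HSP70 chaperone, rose by 0.93 ± 0.22 in TZG against NC (edgeR adjusted p = 0.034). Its level was low, at 15.2, 15.8 and 10.2 CPM in TZG, 11.4, 11.9 and 9.65 CPM in AIA and 7.93, 7.83 and 5.73 CPM in NC. Whether this row holds all reads of the gene was not tested. Leaving out M2, M6, G30, G31, C56, C59 or C61 alone brought the count from 2 down to 1, and with only the 5 libraries matched by title it was 0.

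AIA above all TZG and NC libraries was an order looked for in every list, and 1.57% of all genes tested had it. In the receptor list Ncor1, a corepressor of nuclear receptors, had this order. It stood at 140 ± 17.2 CPM in TZG, 173 ± 13.2 in AIA and 153 ± 4.72 in NC, with log2 fold changes of 0.18 ± 0.12 in AIA against NC and -0.31 ± 0.12 in TZG against AIA (edgeR adjusted p = 0.54 and 0.35). Among 5 tested genes of steroid transport and conversion, none passed in any comparison. H6pd, which feeds NADPH to HSD11B1, stood at 63.3 ± 15.1 CPM in TZG, 63.7 ± 4.76 in AIA and 47.7 ± 1.72 in NC, and its log2 fold change in AIA against NC was 0.42 ± 0.16 (adjusted p = 0.26). H6pd was the gene of this list at an unadjusted p under 0.05 in AIA against NC and in TZG against NC, with 0 genes in TZG against AIA and 0 calls by DESeq2 and limma-voom.

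Metal-responsive genes other than Mt1, Mt2A and Mt1m were tested as a list of 8, which included the metallothionein Mt3. Mt3 was among its genes at an unadjusted p under 0.05 in TZG against AIA. In AIA against NC 0 passed (2 at an unadjusted p under 0.05, 1 in DESeq2, 0 in limma-voom), in TZG against AIA 0 (3 at an unadjusted p under 0.05, 0 in DESeq2 and limma-voom) and in TZG against NC 2, both higher, where 5.79% of all genes were higher. Slc39a14, the zinc importer ZIP14 that interleukin 6 induces, stood at 300.3, 242 and 276 CPM in TZG, 162, 144 and 52.3 CPM in AIA and 63.9, 54.6 and 34.8 CPM in NC. TZG was above every AIA and NC library, with a log2 fold change of 2.42 ± 0.41 in TZG against NC (edgeR adjusted p = 0.015). Its log2 CPM had a correlation of 0.92 with that of Mt2A over the 9 libraries. Slc39a8, the zinc importer ZIP8, rose by 1.46 ± 0.29 (adjusted p = 0.022). Mtf1, which encodes the metal sensor itself, and Slc30a1, a zinc exporter induced by metal, had log2 fold changes of 0.03 ± 0.19 and 0.12 ± 0.14 in TZG against NC (adjusted p = 0.93 and 0.60). The count of 2 was 1 without C56, 1 in a fit of the compared groups alone and 0 with only the 5 libraries matched by title.

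Of 6 genes of interleukin 6 and STAT3 signalling, 0 passed in AIA against NC (2 at an unadjusted p under 0.05, 1 in DESeq2, 0 in limma-voom), 0 in TZG against AIA (2 at an unadjusted p under 0.05, 1 in DESeq2, 0 in limma-voom) and 1 in TZG against NC, where 10.3% of all genes passed. Socs3, the feedback inhibitor that STAT3 induces, stood at 57.1, 50.4 and 50.0 CPM in TZG, 28.4, 20.8 and 8.89 CPM in AIA and 11.2, 8.62 and 15.3 CPM in NC. It rose by 2.17 ± 0.39 on the log2 scale in TZG against NC (edgeR adjusted p = 0.018). TZG was above all other libraries, and AIA overlapped NC. Il6st, the shared receptor chain gp130, was the gene of this list that had the order of Zbtb16, which 1.57% of all genes tested had. It stood at 500.2 ± 70.9 CPM in TZG, 716 ± 23.9 in AIA and 503 ± 74.5 in NC. Its log2 fold change in AIA against NC was 0.51 ± 0.16 (adjusted p = 0.19). No gene of this list passed in TZG against NC without C56 or with only the 5 libraries matched by title.

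Glucocorticoids also set the peripheral clock, and 14 clock genes were tested. In AIA against NC 1 fell, Nr1d1, and 0 rose, where edgeR called 0.0133% of all genes. At an unadjusted p under 0.05 stood 7. DESeq2 called 6 (Ciart, Cry2, Dbp, Nr1d1, Nr1d2 and Tef), where it called 6.24% of all genes, and limma-voom called 1. In TZG against AIA 0 passed (5 at an unadjusted p under 0.05, 0 in DESeq2 and limma-voom). In TZG against NC, where 5.79% of all genes rose and 4.53% fell, 2 clock genes rose, Clock and Cry1, and 6 fell: Cry2, Dbp, Nr1d1, Nr1d2, Per3 and Tef. Dbp, an output factor of the clock, stood at 50.9 ± 13.3 CPM in TZG, 61.4 ± 14.3 in AIA and 182 ± 59.6 in NC, a log2 fold change of -1.84 ± 0.30 in TZG against NC (edgeR adjusted p = 0.015). Cry1, a repressor of the clock, stood at 20.1 ± 1.91, 14.9 ± 0.551 and 11.3 ± 0.932 CPM in TZG, AIA and NC (log2 fold change 0.83 ± 0.13 in TZG against NC, adjusted p = 0.014). Per1 and Per2, which are among the clock genes with known glucocorticoid response elements, had log2 fold changes of 0.16 ± 0.36 and -0.25 ± 0.22 in TZG against NC (edgeR adjusted p = 0.80 and 0.49). The time of tissue collection is not given in the sources used here. The call on Nr1d1 in AIA against NC was lost without M6, G30, G31, C56 or C59, and the 8 calls in TZG against NC were 0 with only the 5 libraries matched by title.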

How the data were processed

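Members and gene lists were chosen with earlier results of these data known. Per the file headers, the deposited table holds read counts, whole numbers without normalisation, and FPKM for each gene. It also holds the authors' log2 fold change, p-value and q-value for each of 3 comparisons. The submitters' processing notes name fastp, HISAT2, StringTie 1.3.3b and edgeR 3.30.3 without roles, and the sources used here name no build, annotation or strandedness. Of the 9 count columns, 5 (C56, C59, C61, G30, M6) carry a sample title as their number and 4 (M2, M8, G31, G48) were placed by letter; the authors' deposited group means match this grouping, with a largest relative difference of 7.3e-04. The 4 FPKM columns placed by letter were not used. FPKM was recomputed from counts, library totals and gene lengths recovered from the other columns.

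Counts were tested with edgeR 4.0.16 in R 4.3.3 (robust quasi-likelihood, TMM, filterByExpr, 1 fit of 9 libraries with a mean per group). This kept 15068 of 32883 genes, including all 9 members. The threshold was 0.05 on the p adjusted by Benjamini and Hochberg over all genes tested. CPM is TMM-scaled, and a standard error is the fold change over the square root of F. The test was tried on simulated data. Library totals ran from 12536231 to 16402126 reads, and every pair of libraries differed by more than sampling noise (chi-square of at least 20.2 per gene). Of 174 list entries 168 matched a row, 1 of them by synonym. Named genes were the members, each list's passing genes and each list's 2 smallest p in AIA against NC and in TZG against AIA. Added to these were the 5 genes most correlated with Zbtb16, leaving out genes whose name is only a database identifier. Other genes named were chosen after their values were seen. Alternatives were DESeq2 1.42.0, upper-quartile factors, RLE factors, limma 3.58.1 (voom, and trend on log2(FPKM + 1) and log2(FPKM + 0.1)), no filter and a stricter one (1 CPM in 6 libraries), the compared groups alone, only the 5 title-matched columns, without C61, M8 and G48, and each library left out.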

Additional observations from a re-analysis of the deposited data

How the results depend on the processing

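Counts over all 9 members include Zbtb16 and Mt1, which were chosen for their values, so nothing is read from their calls; the counts over the other 7 are in parentheses. In AIA against NC the count was 0 (0); DESeq2 and the fit without C61, M8 and G48 each gave 4 (2, Fkbp5 and Mt2A), limma-trend on log2(FPKM + 1) and on log2(FPKM + 0.1) each gave 1 (0), and single libraries left out gave 0 to 1 (0). In TZG against AIA the count of 0 (0) became 2 (0) in DESeq2 and 1 (0) without C61, M8 and G48. In TZG against NC the count of 2 (1, Mt2A) became 4 (3, with Fkbp5 and Hsd11b1) in DESeq2 and 0 (0) with only the title-matched columns, and 2 to 3 (1 to 2) with single libraries left out. Signs turned only for values that had not passed. In AIA against NC, Sgk1 was 0.062 and 0.066 on log2(FPKM + 1) and log2(FPKM + 0.1) and ran from -0.30 to 0.28 with 1 library out, Dusp1 from -0.30 to 0.084 and Hsd11b1 from -0.42 to 0.12. In TZG against AIA, Fkbp5 was -0.0014 with upper-quartile factors, -0.025 in limma-voom and -0.024 and -0.026 on log2(FPKM + 1) and log2(FPKM + 0.1), and ran from -0.30 to 0.27. With title-matched columns only, Klf9 and Dusp1 were 0.70 and 0.33 in TZG against AIA, and Tsc22d3 and Klf9 0.059 and 0.021 in TZG against NC; with 1 library out the first pair ran from -0.47 to 0.15 and from -0.31 to 0.068, and Tsc22d3 in TZG against NC from -0.33 to 0.057. Zbtb16 ran from 1.62 to 1.98 in AIA against NC, from -2.22 to -1.71 in TZG against AIA and from -0.43 to 0.07 in TZG against NC. With title-matched columns AIA and TZG hold 1 library each, assumed to vary like NC. No paired analysis was possible because the labels give no replicate numbers, so those used only name libraries. With 3 libraries a group, a missed threshold does not show that levels were alike, and tissue makeup differed between libraries.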
